A study of Mus musculus with 2 samples.

Results

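Collagen chain genes were taken as every gene symbol of the mouse kidney cortex data that begins with Col followed directly by a digit, which gave 45 of the 31053 genes measured. Of these, 44 encode collagen chains: 11 fibrillar chains, 6 basement membrane chains (type IV) and 27 other chains. The other chains were 9 fibril-associated, 6 type VI, 4 transmembrane, 3 short-chain, 2 multiplexin and 1 anchoring fibril chain, and 2 were not placed in a subfamily. The remaining symbol, Col4a3bp, encodes a ceramide transfer protein and was left out of all sums of chains; it had 1194 UMIs (unique molecular identifiers, each marking 1 captured transcript) in one library and 1013 in the other.

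Collagens are secreted proteins of 3 chains wound into a triple helix. Fibrillar collagens, led by types I and III, form the tensile fibrils of interstitial matrix, and fibroblasts are their main source in kidney. Type IV chains form the sheet-like network of basement membranes: α1 and α2 chains occur under nearly all epithelia and endothelia, and α3, α4 and α5 chains make up the mature glomerular basement membrane and parts of the tubular one. Fibril-associated and type VI collagens coat or link fibrils, and multiplexins lie in or near basement membranes.

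Single-cell RNA of mouse kidney cortex was measured in a pair of libraries at 12 weeks of age. The cells of 1 came from wild-type mice, and those of the other from animals whose podocytes express I-PpoI. I-PpoI is a homing endonuclease that cuts DNA at its recognition sites. The promoter that drives it and the number of mice per library are not given in the labels, and its transcript was not analysed here. With 1 library per genotype there is no replicate, so no test was made: intervals are 95% intervals that cover counting error only, a difference between libraries is a difference between these 2 libraries, and genotype, mouse and library cannot be told apart.

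The I-PpoI library kept 4061 cells with 35968983 UMIs (median 6626 per cell), and the wild-type library kept 3094 cells with 19595441 UMIs (median 3486.5 per cell). Median mitochondrial shares were 3.33% and 14.3%. Levels are given as CPM, the UMIs of a gene per 1000000 UMIs of the same cells; the 3′ counting gives each transcript molecule 1 count whatever its length. Cells were clustered without any collagen gene and named by markers as fibroblast-like, endothelium-like and so on. The suffix holds throughout and is dropped in the text. The class called distal tubule is a pool: principal cells are counted in it with those of the connecting and distal convoluted segments. Podocytes, the glomerular cells that carry the transgene, did not form a cluster: over all kept cells Nphs1 had 104 and 26 UMIs. The cell makeup differed strongly, with 309 fibroblasts of the I-PpoI library against 30 of the wild-type, 58 against 1341 proximal tubule cells, 409 against 736 endothelial cells and 1654 against 185 macrophages. A cluster of injured tubule cells (404 against 0) and 3 sub-clusters of injured distal epithelium (159 against 1 in all) lay in the I-PpoI library. Some clusters stayed unnamed, with 314 against 136 cells, which count in the totals over all cells. The libraries shared 6 cell barcodes, 3 of them among the kept cells.

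Upstream bases from RefSeq (build GRCm38.p6) are given for a pair of type IV genes that lie head to head and for a fibrillar gene whose window holds a motif searched. Col4a4 (minus strand, start at position 82586849) and Col4a3 (plus strand, start at 82586921) share 71 bases of chromosome 1 between their starts, chr1:82586850-82586920, with 69.0% G and C and neither motif searched. Col3a1 has the 250 bases before its start at chr1:45311288-45311537 on the plus strand, with 35.2% G and C; capitals mark TATAAA, which begins 117 bases before the start.
between Col4a4 and Col4a3: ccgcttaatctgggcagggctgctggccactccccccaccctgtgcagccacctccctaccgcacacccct
Col3a1: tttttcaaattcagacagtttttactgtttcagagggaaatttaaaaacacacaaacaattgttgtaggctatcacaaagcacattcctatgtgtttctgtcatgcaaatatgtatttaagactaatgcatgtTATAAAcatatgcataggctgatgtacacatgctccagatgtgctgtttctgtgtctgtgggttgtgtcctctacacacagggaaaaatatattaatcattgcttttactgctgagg

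On either strand, TATAAA occurred in 5 of the 38 windows of 250 bases that matched 35 member genes (13.2%), those of Col3a1, Col10a1, Col11a2, Col13a1 and Col17a1, against 12.4% of all 32851 windows. CCAAT occurred in 13 of 38 (34.2%), against 33.8%. The member windows held both motifs at about the share of all windows. A match is a description and not a binding site. Col4a1 (minus strand) and Col4a2 (plus strand) on chromosome 8 are arranged in the same way as Col4a3 and Col4a4, with annotated starts that overlap by 22 bases.

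Over all kept cells, fibrillar chains were far more abundant in the I-PpoI library, and basement membrane chains nearly level. Fibrillar chains had 56216 UMIs in the I-PpoI library and 2895 in the wild-type, or 1563 and 148 CPM, a ratio of 10.6 (10.2 to 11), which was 22.6 among cells with at least 500 genes. Other chains had 26508 and 3435 UMIs, or 737 and 175 CPM, a ratio of 4.20 (4.06 to 4.36). Type IV chains had 26042 and 11758 UMIs, or 724 and 600 CPM, a ratio of 1.21 (1.18 to 1.23), which fell to 1.03 when mitochondrial and haemoglobin genes were left out of the totals. The collagen pool of the wild-type library was therefore mostly type IV, 65.0% of its chain UMIs against 23.9% in the I-PpoI library, and that of the I-PpoI library mostly fibrillar, 51.7% against 16%. The share of all UMIs that came from fibroblasts was itself 10.5% against 0.807%, a ratio of 13.1.

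Of 40 chains with at least 10 UMIs over both libraries, 23 were at least 2-fold higher in the I-PpoI library (19.5% of 16716 genes passed the same fold) and 7 at least 2-fold lower (14.7% of genes), with a median log2 ratio of 1.79 against 0.05 for all genes. Among fibrillar chains 7 of 10 were higher and 2 were lower, Col24a1 and Col27a1. Among type IV chains 1 of 6 was higher and 2 were lower, and among other chains 15 of 24 were higher and 3 lower (Col19a1, Col26a1 and Col6a6).

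The type I and III chains set the fibrillar total. Col1a1, the α1 chain of type I collagen, had 17892 UMIs against 672, or 497 and 34.3 CPM (ratio 14.5, 13.4 to 15.7). Col1a2, its α2 chain, had 17298 against 714 UMIs and Col3a1, the chain of type III collagen, 15878 against 586. All 3 differed by 13.2-fold or more. Among type V chains, which nucleate fibrils, Col5a2 had 3269 against 305 UMIs (ratio 5.84), Col5a1 1249 against 54 (12.6) and Col5a3 173 against 32. Col27a1, a fibrillar chain best known from cartilage, went the other way over all cells, with 333 against 514 UMIs (ratio 0.353). By class it was at 67.5 and 34.9 CPM in distal tubule and 44.6 and 43.3 in proximal tubule, and lower in I-PpoI fibroblasts. The part of the cell makeup was not tested.

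Over all kept cells, type IV chains split by heterotrimer partner. Col4a1 (361 and 199.8 CPM, ratio 1.81, 1.74 to 1.87) and Col4a2 (255 and 96.8 CPM, ratio 2.64, 2.51 to 2.77) were higher in the I-PpoI library. Col4a3 (33.6 and 97.3 CPM, ratio 0.345) and Col4a4 (54.8 and 176 CPM, ratio 0.312, 0.295 to 0.329) were lower, by 2.90-fold and 3.21-fold. Col4a5, which joins the α3 and α4 chains, had 636 and 557 UMIs (ratio 0.622), and Col4a6 had 78 and 38 (ratio 1.12). Proximal tubule held 1.06% of all UMIs in the I-PpoI library and 46.1% in the wild-type. Within proximal tubule, thick ascending limb and distal tubule, the class sums of Col4a3 and Col4a4 stayed within 2-fold, whereas both were lower in endothelium. The part of the cell makeup in these ratios was not tested.

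**Figure D1:**
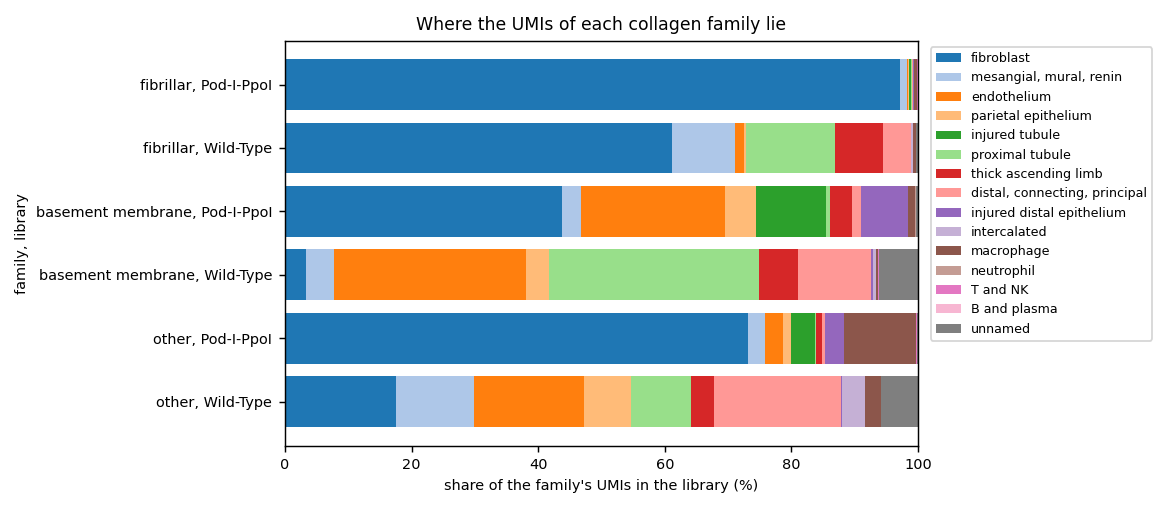
Share of the UMIs of each collagen family (x axis, in percent) that came from each cell class (colours), with 1 bar for each family and library. Fibroblasts hold 97.2% of fibrillar UMIs in the I-PpoI library and 61.1% in the wild-type, and most wild-type type IV UMIs come from proximal tubule and endothelium.

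The cells that supplied the chains differed between the libraries. Fibroblasts held 97.2% of fibrillar UMIs in the I-PpoI library and 61.1% in the wild-type. With classes taken from each cell's own marker score the I-PpoI share was 47.4%, and with at least 500 genes per cell it was 13.1%, since 224 of the 263 fibroblasts kept there were then named mural. Fibroblasts held 43.7% of type IV UMIs in the I-PpoI library and 3.38% in the wild-type, where proximal tubule held 33.3%, endothelium 30.2% and distal tubule 11.5%. In the I-PpoI library endothelium held 22.9% of type IV UMIs and the injured tubule cells 11%.

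On the CPM scale, the order of the classes was similar at its top. Fibrillar chains were highest in fibroblasts, then in mural cells (mesangial, smooth muscle and renin cells in 1 class) in both libraries. Type IV chains were highest in I-PpoI fibroblasts at 3002 CPM, with an interval that overlapped parietal epithelium at 2810, followed by endothelium at 2411 and mural cells at 1454. In the wild-type library type IV chains reached 2516 CPM in fibroblasts, then 1129 in endothelium and 1111 in mural cells, whose intervals overlapped. Next came the unnamed cells at 884 CPM, distal tubule at 583 and proximal tubule at 433.

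**Figure D2:**
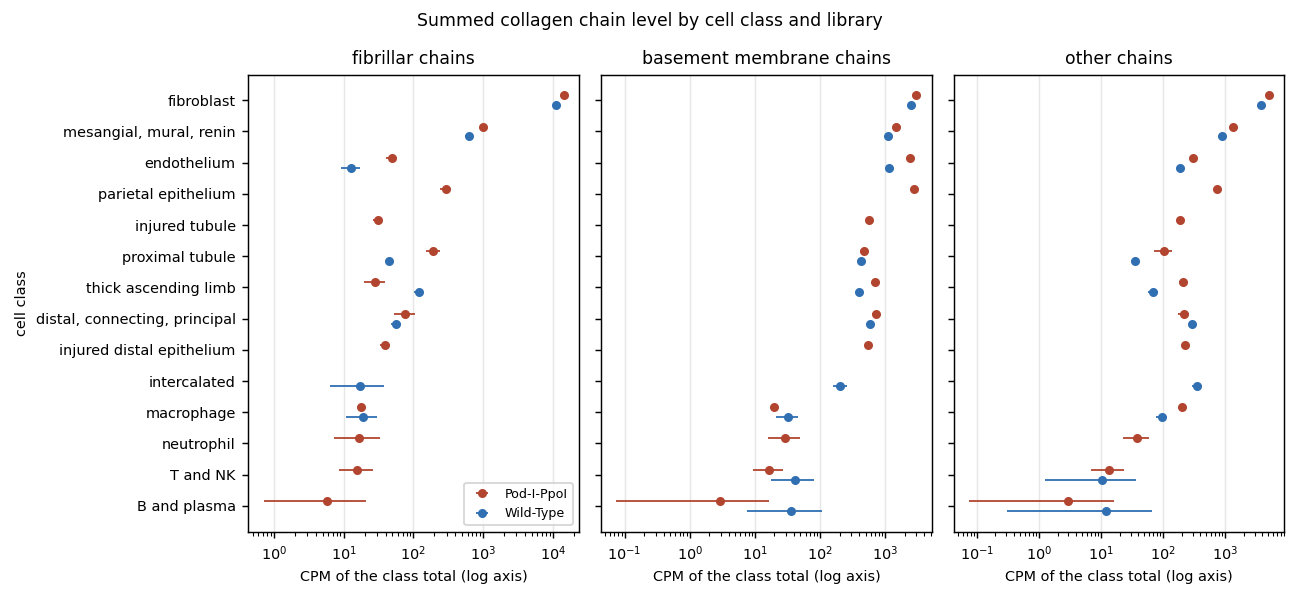
Summed level (x axis, CPM, log scale) of fibrillar, basement membrane and other chains in each cell class with at least 20 cells, with points for the I-PpoI and wild-type libraries and 95% Poisson intervals that cover counting error. Fibrillar chains reach 14417 and 11183 CPM in fibroblasts and 1004 and 623 CPM in mural cells.

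Fibroblasts gave the widest set of chains. In the I-PpoI library 25 of 36 chains (69.4%) were at least 4-fold higher in fibroblasts than in all other cells of that library (7.79% of genes), and in the wild-type 18 of 27 (66.7%, against 9.05% of genes). Endothelium met the same rule with 4 chains in each library, of which Col4a1, Col4a2 and Col13a1 were in both (7.13% of genes in the I-PpoI and 11.6% in the wild-type library). Mural cells met it with 6 chains in the I-PpoI library (7.16% of genes), among them Col18a1 and Col4a5, and with 13 in the wild-type (7.72%), among them Col3a1, Col6a3 and Col12a1. The other cells of each library differed: fibroblasts held 10.5% of all UMIs in the I-PpoI library and 0.807% in the wild-type. The lists of a class therefore do not compare its levels between the libraries. Among mural cells Col12a1 met the rule in the wild-type library only, at 64.2 CPM there and 192 in the I-PpoI library. In the I-PpoI library 6673 of its UMIs lay in fibroblasts and 317 in all other cells, against 56 and 155 in the wild-type. Parietal epithelium met the rule with 5 I-PpoI chains, Col4a1, Col4a5, Col4a6, Col6a1 and Col6a2 (5.7% of genes). Distal tubule met it with Col26a1 in both libraries (5.39% and 4.97% of genes), joined by Col4a4 and Col27a1 in the I-PpoI library. Thick ascending limb met it with Col4a3 and Col4a4 in the I-PpoI library (4.59%) and Col5a2 in the wild-type (2.76%), and proximal tubule with Col4a3 and Col27a1 in the I-PpoI library (6.01%) and Col6a6 in the wild-type (6.53%). Injured distal epithelium met it with 4 chains (6.91%) and injured tubule with Col17a1 alone (6.55%). Macrophages met it with Col14a1 in both libraries (5.22% and 6.96%). Across the 23 class sums with enough cells, log2 levels of partner chains moved together to differing degrees, as a description. The r was 0.99 for Col1a1 and Col1a2, 0.99 for Col6a1 and Col6a2, and 0.98 for Col4a1 and Col4a2. It was 0.86 for Col4a3 and Col4a4 and 0.75 for Col4a5 and Col4a6. Col4a5 had 0.69 with Col4a4 and 0.68 with Col4a3, and Col5a2 was most like Col11a1 (0.84). The 23 class sums share libraries and depth. By the same measure Col12a1 was most like Col8a1 (r = 0.97), Col18a1 most like Col4a5 (0.87), and Col27a1 most like Col4a4 (0.58).

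**Figure D3:**
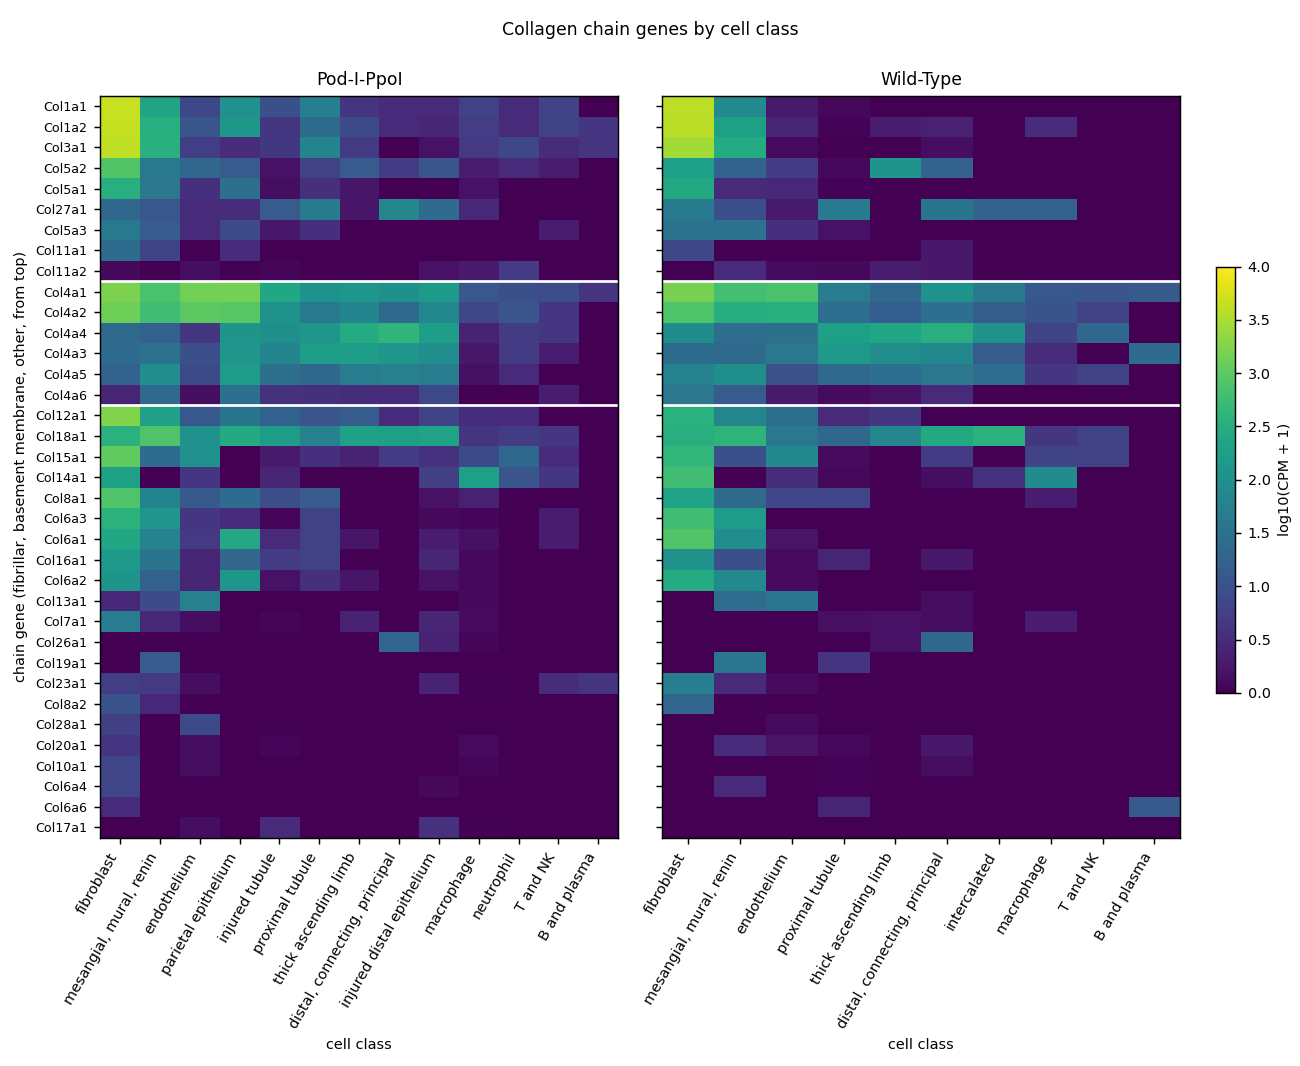
Level of each named chain (colour, log10 of CPM plus 1) in each cell class with at least 20 cells, the I-PpoI library on the left and the wild-type on the right, chains ordered by family. Type I, III, V and XII chains are brightest in fibroblasts, Col14a1 is bright in fibroblasts and macrophages, and Col4a3 and Col4a4 are brighter in tubule classes than in fibroblasts.

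Within fibroblasts the levels of the type I and III chains were close between the libraries, while Col5a2, Col12a1, Col8a1 and Col15a1 stood higher on the I-PpoI side, and type VI chains and Col14a1 stood lower. Summed fibrillar chains were 14417 CPM (14297 to 14539) against 11183 (10668 to 11717), a ratio of 1.29 (1.23 to 1.35). Of 30 chains, 6 were at least 2-fold higher (9.63% of genes) and 8 at least 2-fold lower (16.9% of genes), with a median log2 ratio of 0.20 against −0.19 for all genes. Both counts rest on 30 wild-type cells.

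Col1a1 was at 4630 CPM in the I-PpoI fibroblasts and 3970 in the wild-type (ratio 1.17, 1.08 to 1.26), Col1a2 at 4460 and 3844, and Col3a1 at 4105 and 2826 (ratio 1.45, 1.32 to 1.60). These 3 chains stayed within 2-fold. Col5a2, a type V chain, was at 820 and 177 CPM (ratio 4.63, 3.20 to 6.99), while its partner Col5a1 was at 315 and 272. Col11a1, a minor fibrillar chain, had 93 UMIs against 1, a ratio of 3.88 with an interval from 0.68 to 154.9.

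Among fibril-associated chains, Col12a1 was at 1760 CPM in the I-PpoI fibroblasts and 354 in the wild-type (ratio 4.97, 3.82 to 6.59), and Col14a1 at 192 and 588 (ratio 0.33). Types XII and XIV are closely related coat proteins of fibrils, and in these libraries they lay on opposite sides. Col16a1, of the same subfamily, was at 142 and 107 CPM. Col8a1, the short-chain collagen of vessel walls, was at 802 and 202 CPM (ratio 3.96, 2.80 to 5.81), and Col15a1, a multiplexin, at 1043 and 449 (ratio 2.32). Its relative Col18a1, the source of endostatin, was at 358 and 335 CPM. Col7a1, the anchoring fibril chain, had 185 UMIs in 74 I-PpoI cells and 0 in the wild-type, at least 2.57-fold higher.

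All 3 main type VI chains, which form beaded microfibrils, were lower in the I-PpoI fibroblasts: Col6a1 at 246 and 816 CPM (ratio 0.301), Col6a2 at 118 and 291 (0.41) and Col6a3 at 365 and 594 (0.61, within 2-fold). Of the type IV chains Col4a1 was at 1634 and 1505 CPM (ratio 1.09) and Col4a2 at 1302 and 803 (1.62). The rarer ones were lower, Col4a4 at 23.5 and 88.5 CPM, Col4a5 at 16.9 and 56.9 and Col4a6 at 1.58 and 37.9. Col23a1, a transmembrane chain, was at 4.48 and 50.6 CPM and Col27a1 at 21.6 and 44.3 (ratio 0.49, 0.23 to 1.25).

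A few cells carried much of the wild-type value. The 5 highest of the 30 wild-type fibroblasts held 60.5% of its fibrillar UMIs, the highest alone 20.7%, against 10.9% for the highest 5 of 309 I-PpoI fibroblasts. Col12a1 was found in 8 wild-type cells (56 UMIs) and 255 I-PpoI cells, Col8a1 in 11 and 218, Col5a2 in 14 and 248, and Col14a1 in 16 and 144. For Col8a1, 1 wild-type cell held 18 of 32 UMIs. The Poisson intervals do not cover this spread.

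A Col1a1 UMI was seen in 278 of 309 I-PpoI fibroblasts (90.0%) and in 22 of 30 wild-type ones (73.3%), at medians of 11062 and 5097.5 UMIs per cell. With every cell thinned to 1000 UMIs it was seen in 241 of 281 (85.8%) and 19 of 24 (79.2%). In T and NK cells, which should lack the gene, it was seen in 5 of 264 cells and 0 of 60, which allows a share of up to 5.00%, at medians of 2900.5 and 3012 UMIs.

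Markers of other cells in the fibroblast class also differed. The 13 mural markers summed to 6697 CPM in the I-PpoI and 2965 in the wild-type fibroblasts (0 and 3 of them at 0), and the 16 proximal tubule markers to 18.2 and 638.5 (5 at 0 in each). The 13 endothelial markers summed to 727 and 1100 CPM (none at 0), and the 11 macrophage markers to 443 and 63.2 (1 and 8 at 0). Their part in the chain ratios was not tested.

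**Figure D4:**
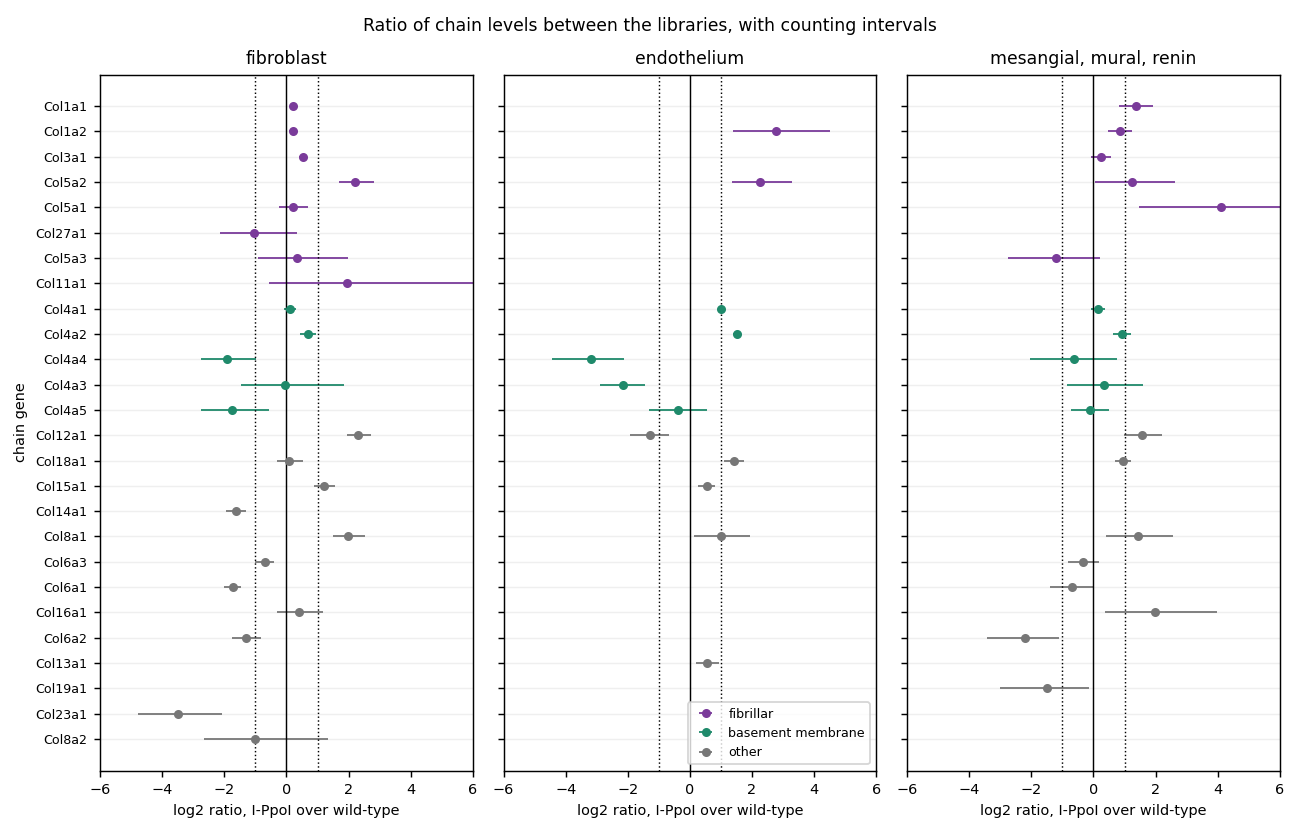
Log2 ratio of I-PpoI to wild-type CPM (x axis) of each chain with at least 20 UMIs, some in each library, in fibroblasts, endothelium and mural cells, with 95% intervals that cover counting error and dotted lines at 2-fold. Col12a1 and Col8a1 lie above 2-fold in fibroblasts and mural cells, and Col4a2 in endothelium.

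The proteins that make and hold collagen were set beside the chains as lists by role. In fibroblasts, of 21 modifying and secreting enzymes 1 was 2-fold higher and 2 lower (median log2 ratio −0.17, near the −0.19 of all genes, of which 9.63% were higher and 16.9% lower). Serpinh1 was at 779 and 1309 CPM and Ppib at 771 and 910, both within 2-fold. Of 9 cross-linking and propeptide-cleaving genes 3 were higher and 1 lower (median 0.18). Lox, the lysyl oxidase that cross-links fibrils, was higher at 392 and 164 CPM, as was its relative Loxl2 at 284 and 114. Adamts2 at 282 and 247 CPM and Pcolce at 271 and 480 stayed within 2-fold. Of 9 receptors 0 were higher and 3 lower (median 0.16). Itga1, a collagen-binding integrin, was lower at 243 and 759 CPM, as was Ddr2, a receptor kinase for fibrillar collagen, at 107 and 240. Itgb1 at 1093 and 778 CPM and Mrc2 at 293 and 259 stayed within 2-fold. Fibril-associated proteins were the most spread, with 6 of 14 higher and 4 lower (median 0.56). Fn1 (fibronectin) was among those higher, at 1468 and 461 CPM, as was Thbs1 (thrombospondin) at 1600 and 202. Bgn, at 3181 and 2522 CPM, stayed within 2-fold. Of the fibril-associated list, 5 members also served as fibroblast markers. Of 12 basement membrane partners 0 were higher and 1 was lower, Nid1, the nidogen that binds type IV collagen, at 285 and 778 CPM.

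In mural cells (90 against 75), summed fibrillar chains were at 1004 and 623 CPM, a ratio of 1.61 (1.40 to 1.87). This ratio depended on where the border with fibroblasts lay: it was 0.990 with coarser clusters, 0.949 when collagen genes were kept in the clustering and 10.6 with classes from each cell's marker score. The 13 fibroblast markers summed to 2897 CPM in the I-PpoI mural cells and 501 in the wild-type (2 and 5 at 0), and the 16 proximal tubule markers to 16.7 and 723 (10 and 0 at 0). Their part was not tested. The 5 highest mural cells held 63.0% and 70.4% of the fibrillar UMIs.

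Of 24 chains in mural cells, 8 were at least 2-fold higher (9.6% of genes) and 4 lower (8.36%); between 4 and 18 were higher under the other cell and class choices. Col12a1 was at 192 and 64.2 CPM (ratio 2.98), Col8a1 at 63.2 and 23.5 (2.69) and Col1a1 at 214 and 83.5 (2.56), whereas Col3a1 was at 348 and 293 (1.19, and between 0.450 and 14.3 under the other cell and class choices). Col12a1 and Col8a1 passed 2-fold in the same direction in both fibroblasts and mural cells, but 5 of the 90 I-PpoI mural cells held 75 of the 103 Col12a1 UMIs, 34 of them in 1 cell. Col5a2 had 22 and 8 UMIs, Col5a1 20 and 1, Col16a1 18 and 4, Col15a1 13 and 4 and Col25a1 9 and 2, and these small counts made up the other 5 chains called higher. Basement membrane chains were at 1454 and 1111 CPM (ratio 1.31, 1.17 to 1.47), with Col4a1 at 703 and 640, Col4a2 at 593 and 312, and Col4a5 at 89.3 and 96.3. Col18a1 was at 777 and 404 CPM (1.92). The lower chains were Col5a3, Col6a2 (16.7 and 77.0 CPM), Col13a1 (7.44 and 25.7 CPM) and Col19a1, a fibril-associated chain with 7 against 17 UMIs. Of 8 cross-linking genes 3 were 2-fold higher and 0 lower (9.6% and 8.36% of all genes), and of 6 receptors 0 were higher and 2 lower.

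In endothelium the type IV α1 and α2 chains stood higher on the I-PpoI side. Basement membrane chains were at 2411 and 1129 CPM (ratio 2.14). Col4a1 was at 1403 and 704 CPM (ratio 1.99, 1.89 to 2.10, just under the 2-fold line) and Col4a2 at 989 and 348 (2.84, 2.64 to 3.05). Of 19 chains 9 were at least 2-fold higher (8.03% of genes) and 3 lower (7.56%); 5 were higher with a minimum of 20 UMIs or in the shared clusters alone. The median log2 ratio was 0.99 against −0.03 for all genes.

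The libraries were mostly held by different endothelial clusters, so clusters were also compared 1 by 1. Cluster 3 had 226 I-PpoI and 9 wild-type cells, and cluster 4 had 11 and 406. Clusters 17 (71 and 75 cells) and 19 (81 and 83) were held by both. In cluster 17, led by Tm4sf1, Ly6c1, Aqp1 and Sox17, type IV chains were at 1502 and 733 CPM (ratio 2.05), and in cluster 19 at 1157 and 636 (1.82). Col4a1 was at 871 and 461 CPM in cluster 17 and 642 and 324 in cluster 19, and Col4a2 at 621 and 224 and at 470 and 264. The direction was the same in both shared clusters. It was the opposite in cluster 26 (19 and 9 cells), with Col4a1 at 589 and 862 CPM. These values came from 48 and 21 UMIs, with overlapping intervals (434 to 781 and 533 to 1317). Col4a1 was at 1715 and 1208 CPM in cluster 3 and at 1512 and 845 in cluster 4.

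**Figure D5:**
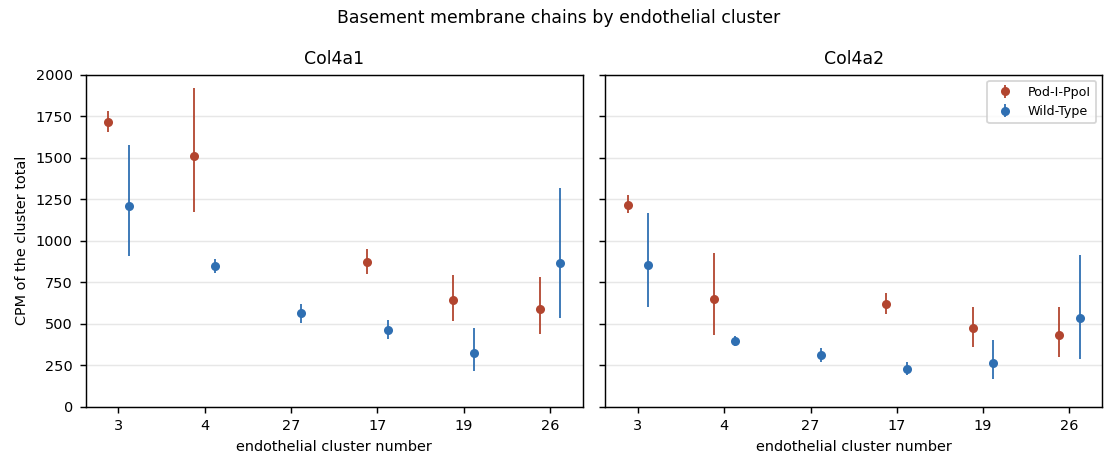
Level (y axis, CPM of the cluster total) of Col4a1 and Col4a2 in each endothelial cluster (x axis) of the I-PpoI and wild-type libraries, with 95% Poisson intervals that cover counting error. Cluster 27 has no I-PpoI point, since it held 1 I-PpoI cell. In clusters 17 and 19, held by both libraries, the I-PpoI Col4a1 values of 871 and 642 CPM lie above the wild-type values of 461 and 324.

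Col18a1 was at 104 CPM in the I-PpoI endothelium and 39.1 in the wild-type (ratio 2.66), and in cluster 17 at 319 and 202. Col15a1 was at 105 and 72.7 CPM and Col13a1 at 53.8 and 36.5; neither passed 2-fold. Col13a1, a transmembrane chain, had 133 of its 148 I-PpoI UMIs and 115 of its 129 wild-type UMIs in endothelium. Among the chains called higher, Col5a2 had 49 UMIs against 13, Col8a1 30 against 19, Col1a2 27 against 5, Col28a1 17 against 1, Col1a1 16 against 3, Col3a1 11 against 1 and Col6a1 9 against 2. Col12a1 was lower, at 11.7 and 28.6 CPM, with most of it in cluster 17 (24 UMIs against 87), which is the reverse of its direction in fibroblasts and mural cells. Col4a3 (8.5 and 37.5 CPM) and Col4a4 (3.24 and 29.2 CPM) were lower too. These 2 chains are typical of tubule cells in these data, and proximal tubule markers summed to 104 CPM in the I-PpoI endothelium and 752 in the wild-type (4 and 0 of 16 at 0). Fibrillar chains were scarce, at 49.0 and 12.7 CPM, with 36 of the 121 I-PpoI UMIs in 1 cell, and the 13 fibroblast markers summed to 720 and 215 CPM (4 and 6 at 0), the 13 mural markers to 566 and 27.9 (1 and 2 at 0). The part of these markers was not tested.

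A Col4a1 UMI was seen in 341 of 409 I-PpoI endothelial cells and 573 of 736 wild-type ones, and after thinning in 257 of 381 (67.5%) and 314 of 676 (46.4%). Thinned T and NK cells showed it in 1 of 257 and 1 of 58. Median depths of the endothelial cells were 4191 and 3381.5 UMIs. Of 13 basement membrane partners 4 were 2-fold higher and 0 lower (median log2 ratio 0.50, against −0.03 for all genes, of which 8.03% were higher and 7.56% lower). Sparc, a collagen-binding chaperone, was among those higher, at 2490 and 1231 CPM. Hspg2 (perlecan) at 566 and 401 CPM, Nid1 at 247 and 169 and Lamb2 at 199 and 208 stayed within 2-fold. Of 20 modifying enzymes 1 was higher and 1 lower (median 0.10).

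Parietal epithelium, the lining of Bowman's capsule, was too small for a comparison (28 and 17 cells) and is given side by side. All 8 parietal markers and 5 of the 13 mural ones passed the naming limits in this class, with 2 of each among its 10 leading genes. Its type IV level was among the highest of any class, at 2810 and 2268 CPM, with 36.9% and 35.8% of these UMIs in 1 cell and 59.6% and 62.6% in the highest 5. Col4a1 was at 1481 and 1366 CPM, Col4a2 at 907 and 438, Col4a5 at 157 and 208, Col4a4 at 117 and 197 and Col4a3 at 119 and 26.7. Col18a1 was at 274 and 1270 CPM (124 and 238 UMIs), in 18 of 28 and 17 of 17 cells. Col6a1 had 119 UMIs against 1, Col6a2 58 against 0 and Col1a1 48 against 0. The 13 fibroblast markers summed to 349 and 53.4 CPM in these cells (10 at 0 in each) and the 13 mural markers to 8548 and 3394 (7 and 9 at 0), and the 16 proximal tubule markers to 19.9 and 587 (13 and 7 at 0). Their part in these values was not tested.

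In proximal tubule, thick ascending limb and distal tubule, Col4a4 or Col4a3 had the most UMIs of the type IV chains. Distal tubule had Col4a4 at 412 and 338 CPM and Col4a3 at 120 and 71.5, proximal tubule Col4a4 at 131 and 189.5 and Col4a3 at 176 and 144, and thick ascending limb Col4a4 at 292 and 234 and Col4a3 at 165 and 91.2. None of these class sums differed by 2-fold, but within cluster 0 of the thick ascending limb, held by both libraries, both passed it: Col4a3 was at 165 and 59.6 CPM (ratio 2.77, 1.84 to 4.34) and Col4a4 at 292 and 145 (2.02, 1.55 to 2.69). The injured tubule cells of the I-PpoI library had Col4a1 at 249 CPM, Col4a2 at 114, Col4a4 at 98 and Col4a3 at 63.0, and its injured distal epithelium had Col4a4 at 174, Col4a1 at 151 and Col4a3 at 90.8.

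Thick ascending limb was the tubule class with the most change in α1 and α2. Col4a1 was at 124 and 21.7 CPM (ratio 5.72), Col4a2 at 63.2 and 14.7 (4.31) and Col18a1 at 190 and 64.6 (2.95). Of 9 chains 5 were at least 2-fold higher (23.8% of genes) and 1 lower (6.77%), with a median log2 ratio of 1.56 against 0.43 for all genes. The 5 highest cells held 39.0% of the type IV UMIs of this class in the I-PpoI library and 11.3% in the wild-type. Cluster 28 of this class held 69 wild-type and 0 I-PpoI cells; within cluster 0, held by both (107 and 177 cells), type IV chains were at 695 and 257 CPM (ratio 2.71). Without mitochondrial and haemoglobin genes in the totals, the type IV ratio of the class was 1.36 (1.23 to 1.50), from 695 against 390 CPM with them; median mitochondrial shares were 16.8% and 33.9%. In proximal tubule 8 of 15 chains were 2-fold higher (12.3% of genes) and 0 lower (6.07%). Col4a1 had 41 and 446 UMIs there and Col18a1 22 and 185, out of class totals of 381136 and 9037951 UMIs. The summed type IV ratio of proximal tubule was 1.10 (0.95 to 1.28), and 1.03 (0.88 to 1.19) without mitochondrial and haemoglobin genes. The 5 highest of its 58 I-PpoI cells held 65.9% of the type IV UMIs. In distal tubule 0 of 10 chains were higher (5.04%) and 1 lower (12.3%). The 5 highest of its 42 I-PpoI cells held 69.5% of the type IV UMIs, against 18.5% for the highest 5 of 184 wild-type cells. Median depths of these cells were 2306.5 and 8091.5 UMIs.

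Some fibrillar and other chains were found in particular tubule cells. Col5a2 in thick ascending limb was at 12.9 and 117 CPM (ratio 0.11), with 215 wild-type UMIs in 52 of 246 cells. In the wild-type-only cluster 28 it was found in 35 of 69 cells, and in cluster 0 it was at 12.9 and 66.5 CPM. T and NK cells had a Col5a2 UMI in 1 of 264 and 0 of 60 cells, and thick ascending limb cells had medians of 4503 and 2284.5 UMIs. Col26a1, a chain of little-known function, had 50 of its 51 wild-type UMIs in distal tubule and 9 of 16 in the I-PpoI library, at 21.5 and 19 CPM, respectively. Col27a1 was at 67.5 and 34.9 CPM in distal tubule and at 44.6 and 43.3 in proximal tubule, and within wild-type proximal tubule it lay mostly in cluster 10 (98.5 CPM, 114 of 191 cells) with 0 UMIs in clusters 6 and 25; no T and NK cell had one. In the I-PpoI library 5 cells held 24 of the 32 Col27a1 UMIs of distal tubule, and 5 cells 15 of the 17 of proximal tubule. Col18a1 was highest among wild-type tubule classes in intercalated cells, at 353 CPM. Of the fibrillar UMIs in I-PpoI proximal tubule, 54 of 74 lay in 1 cell.

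Among macrophages Col14a1 was the leading chain. It was at 183 CPM in the I-PpoI library and 84.0 in the wild-type (ratio 2.18, 1.74 to 2.78), with 2769 UMIs in 1061 of 1654 cells against 76 UMIs in 49 of 185 cells. T and NK cells had a Col14a1 UMI in 1 of 264 and 0 of 60 cells, at medians of 2900.5 and 3012 UMIs against 8130 and 4513 in macrophages. Among macrophage clusters Col14a1 was at 202 and 97.1 CPM in cluster 9, held by both libraries (797 and 159 cells), and at 206, 87.4 and 171 CPM in the I-PpoI cells of clusters 11, 15 and 22. Macrophages held 77.7% of Col14a1 UMIs in the I-PpoI library and 41.1% in the wild-type, against 20.4% and 50.3% in fibroblasts. Over all cells Col14a1 was 10.5-fold higher in the I-PpoI library, whereas its level within fibroblasts was lower there; fibroblasts, 309 against 30, had 726 UMIs of it against 93. Of 16 chains in macrophages 1 was at least 2-fold higher (8.22% of genes) and 4 lower (13.1%).

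The rarest chains completed the set. Col17a1, the hemidesmosome chain, had 22 UMIs in the I-PpoI library and 0 in the wild-type, at least 3.99-fold higher. Of the 22, 10 lay in 3 injured distal cells and 10 in 9 injured tubule cells. Col10a1, the chain of growth plate cartilage, had 22 UMIs in 4 I-PpoI fibroblasts. Col7a1 had 201 and 7 UMIs over all cells and Col28a1 had 35 and 1. The short-chain Col8a2 had 37 and 3 UMIs, the type VI chains Col6a4 and Col6a6 had 23 and 2 and 8 and 15, the fibril-associated Col20a1 had 19 and 8, and the fibrillar Col11a2 had 21 and 8. Under 20 UMIs in both libraries together were 8 chains: Col25a1 (18), Col6a5 (15), Col24a1 (11), Col9a3 (10), Col2a1 and Col9a2 (1 each), and Col9a1 and Col22a1 (0 each).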

How the data were processed

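The authors deposited raw UMI counts per gene and cell for 1 library of each genotype (kidney cortex, digested, reagent kit version 3.1, mm10). Per the labels these counts came from Cell Ranger 3.1, followed by Seurat 3; the file headers name Cell Ranger 6.0.2. The conflict was not resolved.

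Cells with at least 200 genes and at most 50% mitochondrial UMIs were kept. Scrublet doublets were left out by its automatic threshold in the I-PpoI library (30 cells, 0.733%); in the wild-type library, where it marked 5, the top 4% of scores were left out (123 cells, 3.82%). With scanpy 1.11.5 (Python 3.11.15), counts scaled to 10000 per cell, 2000 variable genes without collagen genes, 30 principal components, 15 neighbours and Leiden resolution 1 gave the clusters. Clusters were named where at least 3 markers were at 25 CPM or more and 4-fold over the median of the clusters, with 10 CPM added to each level. The class named also needed a marker among the 10 leading genes of the cluster, and haemoglobin could hold at most 10% of its UMIs. Other clusters stayed unnamed. These limits and the sub-clustering (resolution 0.3) were set after seeing the data, and rebuilt names can differ from the study's.

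UMIs were summed per class and library. A chain was called at a 2-fold CPM ratio with at least 10 UMIs over both libraries, in classes of at least 20 cells in each; a class-specific chain at 4-fold. Intervals are exact Poisson, Clopper-Pearson or conditional binomial at 95% (scipy 1.17.1), and the floor for a zero is 3 UMIs. The scripts were tested on simulated data. Every chain with at least 20 UMIs is named with values. Members and lists were chosen with earlier results of these data known. Protein features were not analysed here.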

Additional observations from a re-analysis of the deposited data

How the results depend on the processing

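Alternatives to the cell, class and level choices moved the family ratios more than their directions. The fibrillar ratio over all cells (10.6) was 9.06 with at most 25% mitochondrial UMIs, 22.6 with at least 500 genes per cell, 9.02 without mitochondrial and haemoglobin genes and 8.79 as a mean of the cells' own CPM. With at least 500 genes, 9 of the 30 wild-type fibroblasts fell below the minimum, 11 more were left out as doublets and 1 kept the name, so fibroblasts could not be compared. The type IV ratio over all cells (1.21) was 1.09, 1.03 and 1.05 with 25% mitochondrial UMIs, without mitochondrial and haemoglobin genes and as the cell mean. In fibroblasts the fibrillar ratio (1.29) was 1.16 with 25% mitochondrial UMIs, 1.49 by marker score, 1.36 with the top 4% of doublet scores left out in both libraries and 1.49 as the cell mean, and the type IV ratio (1.19) was 1.08 as the cell mean. In endothelium the type IV ratio (2.14) was 2.0 in the shared clusters and 1.93 as the cell mean.

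In mural cells the fibrillar ratio (1.61) reversed to 0.990 at resolution 0.5 and 0.949 with collagen genes kept; it was 16.3 with 500 genes, 1.18 with doublets kept, 2.27 at resolution 2, 10.6 by marker score and 1.95 as the cell mean. The mural type IV ratio (1.31) was 2.30 with 500 genes and 1.88 by marker score. Chains higher in mural cells (8) numbered 5 with 25% mitochondrial UMIs, at resolution 0.5 or with the top 4% of doublets left out in both, 18 with 500 genes, 4 with collagen genes kept, 15 by marker score and 1 at 4-fold; those lower (4) numbered 2 by marker score and 1 at 4-fold. Chains higher in fibroblasts (6) numbered 2 at 4-fold, and those lower (8) 5 by marker score and 2 at 4-fold. Chains higher in endothelium (9) numbered 5 by marker score, with 20 UMIs or in the shared clusters. The wild-type endothelial share of type IV UMIs (30.2%) was 40.0% with 25% mitochondrial UMIs and 31.4% with 500 genes. The I-PpoI fibroblast share of fibrillar UMIs (97.2%) was 97.4% with 25% mitochondrial UMIs or doublets kept, 13.1% with 500 genes, 97.5% at resolution 0.5 or with the top 4% left out in both, 96.3% at resolution 2, 97.6% with collagen genes kept and 47.4% by marker score. Among single chains 13 values moved, such as Col3a1 in mural cells (1.19), which was 0.450 with collagen genes kept, and 54 stayed within their intervals; 105 further family ratios, shares and counts stayed within theirs or within 1.5 times. Where no count above gives it, the cause was not tested. The shared-cluster, cell-mean and both-library doublet alternatives were chosen after seeing the data. No paired analysis was possible because each genotype has 1 library and the labels give no shared replicate numbers. With 30 wild-type fibroblasts, chains with few UMIs there have wide intervals.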
